A study of Mus musculus with 6 samples.

Results

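The transcripts of 10 integrin subunit genes of macrophages were followed in RAW264.7 cells, a mouse macrophage line from BALB/c mice, treated for 24 h with 150 µg/ml of the extract C2S (3 libraries) and in the PM_control cells given 0 µg/ml (3 libraries). The genes were taken by symbol: the alpha subunits Itga4, Itga5, Itga6, Itgal, Itgam and Itgav and the beta subunits Itgb1, Itgb2, Itgb5 and Itgb7. All 10 were found among the 52636 genes of the deposited tables, and all 10 were among the 11561 that passed the filter on low counts. The labels spell out neither C2S nor PM, nor do they state whether replicates came from separate cultures. The p-values therefore reflect the variation among these 6 samples, and part of it may be technical.

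Integrins are receptors that join a cell to its surroundings, each built from an alpha and a beta chain that must pair in the endoplasmic reticulum before they reach the surface. The beta2 integrins are the leukocyte class and bind ICAM proteins, complement fragments and fibrinogen. The beta1, beta5 and beta7 chains pair with alpha chains that bind fibronectin, laminin, vitronectin, VCAM-1 or MAdCAM-1. Macrophages use them to adhere, spread, migrate and take up particles.

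Total estimated counts ranged from 8594485 to 10491307 in the C2S libraries and from 9149574 to 10665869 in the controls. CPM values here are counts over the TMM-scaled library total, and 3 counts, taken as the floor, equal 0.275 to 0.361 CPM depending on the library. Neither this floor nor a counting interval covers more than counting error. Over the 11561 genes tested, 3123 (27.0%) were called higher and 3282 (28.4%) lower with C2S by edgeR's quasi-likelihood test at an adjusted p of 0.05. The higher genes were 48.8% of these calls, but 38.3% with library sizes alone as the scaling and 35.9% when limma tested log2(TPM + 1). TPM is an abundance scaled for transcript length and depth. The 8 macrophage markers summed to between 7920 and 8187 CPM with C2S and between 6898 and 7308 CPM in the controls, and of these Mertk was near 0, with a single count over all 6 libraries. They did not move together: Csf1r, Lyz2, Cd68 and Adgre1 were called higher, Cd14 lower, and Spi1 and Fcgr1 were not called. Csf1r averaged 3813 CPM with C2S and 3007 CPM in the controls, and its exons overlap those of Hmgxb3 over 15.1% of their length. Cd14 averaged 584 CPM with C2S and 887 CPM in the controls (edgeR, adjusted p = 4.39e-07), Spi1 358 CPM with C2S and 391 CPM in the controls, and Fcgr1 54.8 CPM with C2S and 60.5 CPM in the controls. The summed markers of osteoclasts were 21.4 to 28.4 CPM with C2S and 40.2 to 44.5 CPM in the controls, with Calcr at 0, although Ctsk gave 38 reads with C2S and 4 in the controls. The markers of other cells summed to little in every library. Those of dendritic cells, which include Itgax, summed to 3.73 to 4.81 CPM with C2S and 1.05 to 1.82 CPM in the controls, and those of T cells to 3.73 to 4.19 CPM with C2S and 1.72 to 2.75 CPM in the controls. Neutrophil markers summed to 1.80 to 2.65 CPM with C2S and at most 0.551 CPM in the controls, B cell markers to 1.20 to 2.26 CPM with C2S and at most 0.303 CPM in the controls, and fibroblast markers to at most 0.589 CPM with C2S and 0 in the controls. The neutrophil sum with C2S rested mostly on Mpo, with 54 reads with C2S and 0 in the controls (called higher; exons overlapped by Gm11505 over 14.95%). Mpo passed the filter on low counts through the C2S libraries only, so it could only be called higher. The T cell sum rested mostly on Lck, with 106 reads with C2S and 64 in the controls (called higher), and the B cell sum on Cd79a, with 41 reads with C2S and 4 in the controls. The listed markers Ccr7, S100a9, Elane, Cd3e, Cd8a, Ms4a1, Col1a2 and Pdgfra were at 0 in all 6 libraries. The part of these marker differences in the results on integrins was not tested.

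Of the 10 integrin genes, 3 rose with C2S and 3 fell. The risers were the Mac-1 chains Itgam and Itgb2 and the beta chain gene Itgb7, and the fallers were the alpha chain genes Itga5, Itgav and Itga4. The alpha chain genes Itga6 and Itgal and the beta chain genes Itgb1 and Itgb5 were not called. The 6 called are 60% of the 10, beside 55.4% of all genes tested (27.0% higher, 28.4% lower), so the share of integrin genes called was near the background. The groups did not overlap in scaled counts for 7 of the 10, beside 61.1% of all genes tested. The median log2 fold change of the 10 was 0.13, beside -0.0021 over all genes tested. In bulk RNA, fewer cells with a transcript and less of it per cell cannot be told apart.

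**Figure D1:**
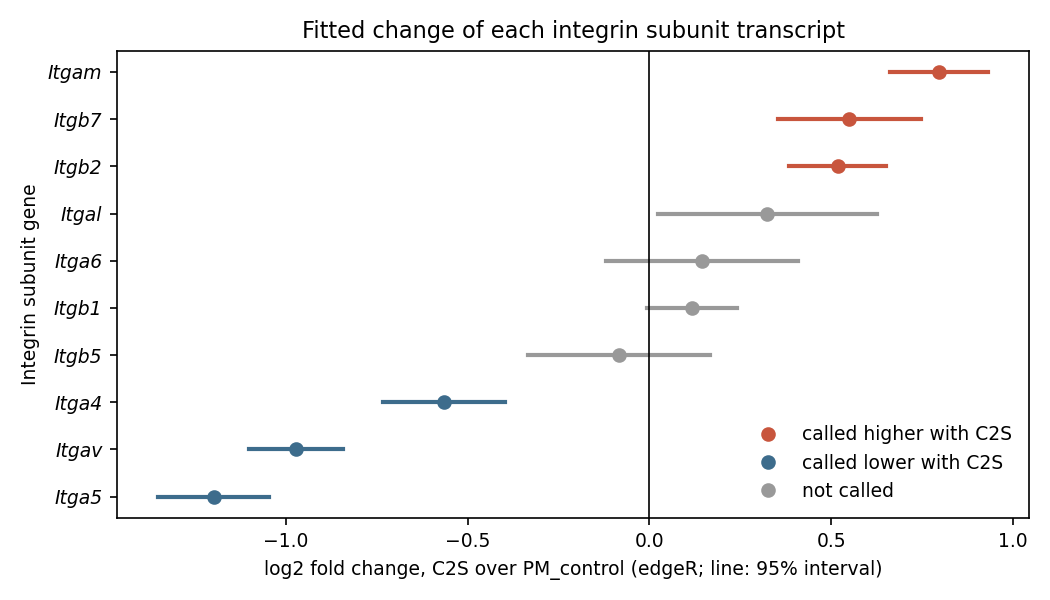
Fitted log2 fold change of each integrin subunit transcript, C2S over PM_control, with its 95% interval from edgeR, ordered from the highest (Itgam, 0.80) at the top to the lowest (Itga5, -1.20). Points are coloured by call, and the 3 lowest are all alpha subunits.

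In cells given C2S the most abundant of the 10 per transcript length was Itgb2, with a mean of 180 TPM, followed by Itga4 (171), Itgam (120), Itgb1 (96.8), Itga5 (63.2), Itgav (51.9), Itgb7 (26.6), Itgb5 (14.5), Itga6 (9.65) and Itgal (9.34). The libraries of Itgb2 and Itga4 overlapped in that order, as did those of Itga5 and Itgav and those of Itga6 and Itgal. In the controls the order of mean TPM was Itga4 (273), Itga5 (156), Itgb2 (136), Itgb1 (95.6), Itgav (82.4), Itgam (76.05), Itgb7 (19.9), Itgb5 (16.3), Itga6 (8.78) and Itgal (7.87), and only Itga6 and Itgal overlapped among neighbours there. Itga5 thus stood at rank 5 with C2S and rank 2 in the controls, and Itgam at rank 3 with C2S and rank 6 in the controls. Summed over the 10 genes, TPM came to 773, 742 and 712 with C2S, against 919, 863 and 834 for the controls, without overlap. The median log2 fold change of all genes was -0.09 with limma on log2(TPM + 1), beside -0.0021 in the edgeR fit. The part of this shift in the sum was not tested.

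**Figure D2:**
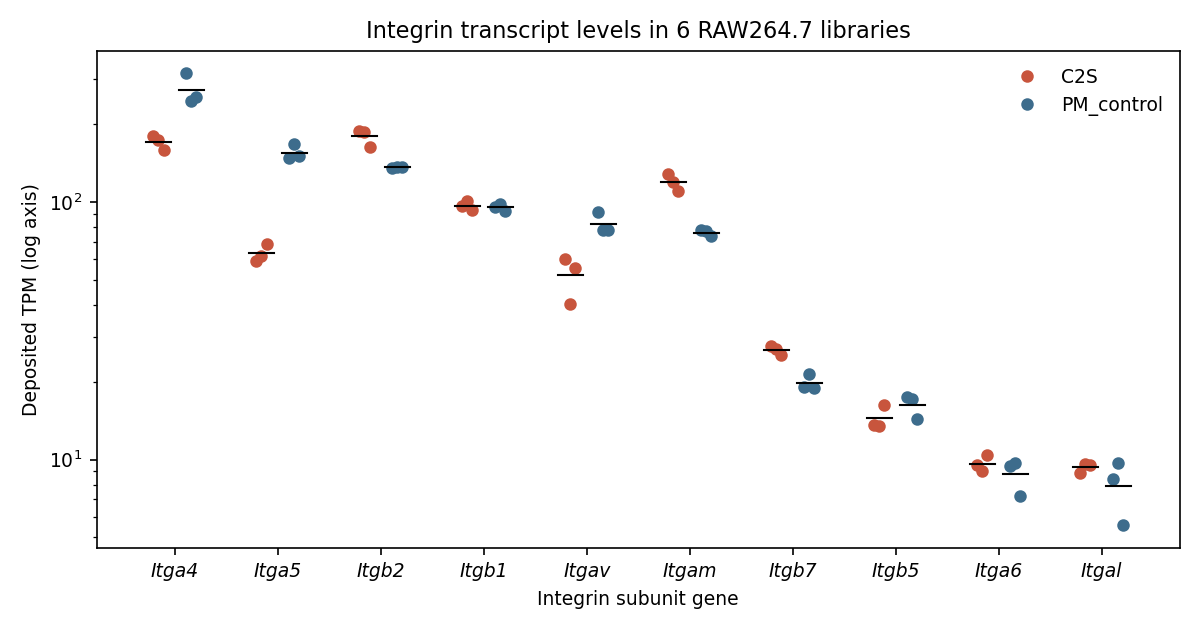
Deposited TPM (log axis) of each integrin gene in each of the 6 libraries, C2S left of PM_control, with the group mean as a black bar. Itga5 at 59.2 to 68.6 TPM with C2S lies below its controls at 148 to 168 TPM, Itgam lies above its controls, and the points of Itgb1, Itga6 and Itgal lie among each other.

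Of the 10 genes, 7 had a window of 300 bases around the transcription start in RefSeq (GRCm38.p6, the build of the files), from 250 bases before the start to 50 after it. The windows of the 5 called genes among them are shown because these transcripts moved with C2S in either direction. Capitals mark the core of the myeloid factor PU.1, GAGGAA, and the GC box of Sp1, GGGCGG, on either strand. The window of Itgam is chr7:128062390-128062689 on the + strand, and that of Itgb7 chr15:102231886-102232185 on the - strand. That of Itga5 is chr15:103366742-103367041 on the - strand, that of Itgav chr2:83724147-83724446 on the + strand and that of Itga4 chr2:79255176-79255475 on the + strand.
Itgam: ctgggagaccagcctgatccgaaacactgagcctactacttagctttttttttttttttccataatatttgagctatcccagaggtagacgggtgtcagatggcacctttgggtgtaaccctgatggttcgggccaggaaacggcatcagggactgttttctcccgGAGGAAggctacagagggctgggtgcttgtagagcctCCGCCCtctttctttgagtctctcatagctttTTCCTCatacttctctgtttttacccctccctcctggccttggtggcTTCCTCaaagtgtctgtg
Itgb7: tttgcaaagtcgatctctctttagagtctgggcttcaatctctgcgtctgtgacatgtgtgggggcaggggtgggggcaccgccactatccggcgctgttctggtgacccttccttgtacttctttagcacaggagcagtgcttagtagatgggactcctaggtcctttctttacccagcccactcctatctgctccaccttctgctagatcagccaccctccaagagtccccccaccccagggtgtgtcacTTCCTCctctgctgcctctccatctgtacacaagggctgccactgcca
Itga5: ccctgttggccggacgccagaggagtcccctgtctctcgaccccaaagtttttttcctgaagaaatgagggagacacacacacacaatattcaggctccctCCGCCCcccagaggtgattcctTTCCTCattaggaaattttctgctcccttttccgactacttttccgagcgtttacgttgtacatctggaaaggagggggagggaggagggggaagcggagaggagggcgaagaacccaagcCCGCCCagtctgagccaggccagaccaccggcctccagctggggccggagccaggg
Itgav: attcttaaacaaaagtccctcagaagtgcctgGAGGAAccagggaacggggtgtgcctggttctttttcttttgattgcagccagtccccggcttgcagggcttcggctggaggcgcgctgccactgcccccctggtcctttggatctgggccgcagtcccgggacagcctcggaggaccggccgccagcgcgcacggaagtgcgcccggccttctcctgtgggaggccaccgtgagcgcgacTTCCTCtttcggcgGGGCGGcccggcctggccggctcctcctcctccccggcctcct
Itga4: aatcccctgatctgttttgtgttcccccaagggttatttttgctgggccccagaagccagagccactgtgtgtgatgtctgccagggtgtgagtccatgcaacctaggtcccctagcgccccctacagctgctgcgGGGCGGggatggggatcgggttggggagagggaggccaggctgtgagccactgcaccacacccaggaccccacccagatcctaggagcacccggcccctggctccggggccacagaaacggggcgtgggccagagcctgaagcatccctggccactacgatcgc

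The letters GAGGAA stood in 5 of the 7 windows, those of Itgam, Itgb7, Itga5, Itgav and Itgb1, and in 28.3% of all 32851 promoter windows of the same length. Itgam held 3 such matches, which begin at positions -84, -15 and 33 from the start, where the first transcribed base is 1. The GC box stood in 6 of the 7 windows, all but that of Itgb7, and in 35.7% of all windows. The AP-1 letters TGANTCA, the E-box CACGTG and the ATF4 letters TGATGNAA, searched on both strands, stood in 0 of the 7 windows and in 7.81%, 7.15% and 3.97% of all windows. None of these 5 motifs overlaps another in the windows shown. GAGGAA stood in windows of genes that rose (Itgam and, at position 3, after the start, Itgb7) and of genes that fell (Itga5 and Itgav), and these matches are letters in a window, not measured binding.

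Transcripts of both chains of Mac-1 rose. Itgam (ENSMUSG00000030786, chromosome 7, 128062640 to 128118491, 30 exons) encodes alphaM, or CD11b, which pairs with beta2 to bind complement-coated particles and fibrinogen. C2S libraries held 376, 347 and 329 CPM of it, against 208, 205 and 193 CPM in the controls, and the groups lay apart. Its log2 fold change was 0.80 ± 0.06 (SE; edgeR, adjusted p = 1.66e-08), or 1.74-fold. Exons of Gm49368 on the same strand cover 68.7% of its exon length and its expected counts were over 0.005 from a whole number in every library, so its value is uncertain. Reads assigned to Gm49368 itself numbered 28, 80 and 32 with C2S, against 31, 25 and 40 for the controls. On the deposited TPM its groups lay apart, at 6.49, 5.84 and 10.5 with C2S and 1.22, 3.11 and 1.39 in the controls. With the counts of both genes summed, a choice made after the data were seen, the log2 fold change of Itgam was 0.79 (edgeR, adjusted p = 1.35e-08).

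Itgb2 (ENSMUSG00000000290, chromosome 10, 77530252 to 77565708) encodes the common beta2 chain, CD18. C2S libraries held 315, 314 and 283 CPM of it and control libraries 209, 225 and 203 CPM. The lowest C2S library was above the highest control. The log2 fold change of 0.52 ± 0.06 (edgeR, adjusted p = 2.92e-06) amounts to 1.43-fold.

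Itgal encodes alphaL, the partner of beta2 in LFA-1, which binds ICAM proteins. It was low, at 25.5, 25.4 and 30.7 CPM with C2S and 23.0, 25.6 and 16.4 CPM in the controls. The groups overlapped, and its log2 fold change of 0.32 (95% interval 0.02 to 0.63) did not pass the test (edgeR, adjusted p = 0.0634). It did without C2S replicate 1 (adjusted p = 0.0495), without C2S replicate 2 (0.0466), without PM_control replicate 2 (0.0219) and without the low-count filter (0.0347), within a range of 0.0219 to 0.330 over its alternatives.

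Among transcripts of beta2 partners, Itgam made up 92.9%, 91.1% and 91.1% of summed alpha TPM with C2S and 89.3%, 88.5% and 92.7% in the controls, and these ranges overlapped. Itgal made up 6.40% to 7.87% with C2S and 6.998% to 11.1% in the controls. These shares rest on the TPM of Itgam, which is uncertain because of Gm49368. Of the other partners, Itgax (alphaX, CD11c) gave 28, 28 and 27 reads with C2S, against 10, 7 and 5 for the controls, and Itgad gave 0 in all 6 libraries. With C2S the summed alpha TPM was 0.738, 0.703 and 0.736 times the TPM of Itgb2, against 0.642, 0.635 and 0.580 times for the controls, without overlap.

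Of the 4 alpha chain genes among the 10 whose products pair with beta1, Itga5, Itgav and Itga4 fell and Itga6 was not called, nor was Itgb1. Itga5 (ENSMUSG00000000555, chromosome 15, 103344286 to 103366763, 31 exons) encodes alpha5, which with beta1 forms the main fibronectin receptor. C2S libraries held 173, 178 and 201 CPM of it, against 395, 459 and 412 CPM for the controls. Every C2S library was below every control, and the log2 fold change was -1.20 ± 0.07 (edgeR, adjusted p = 4.65e-10), the lowest of the 10. In absolute size it exceeded 88.8% of the log2 fold changes of all genes tested.

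Itgav (ENSMUSG00000027087, chromosome 2, 83724397 to 83806916) encodes alphaV, which with beta1, beta3 or beta5 binds RGD peptides in vitronectin, fibronectin and osteopontin. C2S libraries held 101, 102 and 105 CPM of it, against 210, 202 and 192 CPM for the controls. They lay close together and below all controls, and the log2 difference was -0.97 ± 0.06 (edgeR, adjusted p = 7.94e-10). On the deposited TPM the C2S libraries were less alike, at 60.0, 40.2 and 55.4 TPM, against 91.5, 78.2 and 77.6 TPM in the controls. The gene length that RSEM assigned to Itgav, which is weighted by the transcripts it found in use, was 2640, 3908 and 2909 bases with C2S and 3804, 4145 and 3999 bases in the controls. The 2 shorter lengths belong to the C2S libraries with the higher TPM.

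Itga4 (ENSMUSG00000027009, chromosome 2, 79255426 to 79333123) encodes alpha4, which binds VCAM-1 and fibronectin with beta1 and MAdCAM-1 with beta7. C2S libraries held 1162, 1137 and 1067 CPM of it, against 1901, 1518 and 1559 CPM for the controls. All C2S libraries were below all controls, of which replicate 1 was the highest. The log2 fold change was -0.56 ± 0.08 (edgeR, adjusted p = 1.24e-05) and -0.46 without PM_control replicate 1. It was -0.32 once each library's trend over GC content was removed (edgeR, adjusted p = 0.00248), and the longest transcript of Itga4 has the lowest GC content of the 10 genes, 41.1%.

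Itga6, which encodes the laminin receptor chain alpha6, was low, at 24.1, 23.3 and 22.3 CPM with C2S and 22.6, 23.2 and 17.2 CPM in the controls. The groups overlapped, and the log2 fold change was 0.15 (95% interval -0.12 to 0.41; edgeR, adjusted p = 0.338). Itgb1 (ENSMUSG00000025809, chromosome 8, 128685654 to 128733200), the common beta1 chain, stood at 241, 249.1 and 235 CPM with C2S and 217, 232 and 218 CPM in the controls. Its C2S values lay just above the controls, and its log2 fold change of 0.12 had a 95% interval of -0.0057 to 0.24 (edgeR, adjusted p = 0.0974). With the GC trend removed it was called, at 0.21 (adjusted p = 0.00577), within a range of 0.00577 to 0.852 over its alternatives.

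Summed over Itga4, Itga5, Itga6 and Itgav, alpha TPM came to 309, 284 and 294 with C2S, against 565, 502 and 491 for the controls, a clear gap between the groups. Per TPM of Itgb1 this sum was 3.06 ± 0.219 with C2S and 5.44 ± 0.424 in the controls (SD, n = 3 each). Some of these alpha chains also pair with other beta chains, so the sum is not a count of beta1 integrins. Itga5 made up 19.1%, 21.7% and 23.3% of the sum with C2S and 26.2%, 33.4% and 30.7% in the controls, while Itga6 made up 3.09%, 3.16% and 3.54% with C2S and 1.67%, 1.94% and 1.46% in the controls. Shares of both lay apart between the groups. The TPM of Itga6 itself overlapped, with means of 9.65 with C2S and 8.78 in the controls, so its larger share reflects the smaller sum. Its highest share, in C2S replicate 3, also goes with the shortest length that RSEM assigned to it, 3268 bases. The shares of Itga4 (54.3% to 61.0% with C2S, 49.1% to 55.9% in the controls) and Itgav (14.1% to 19.4% with C2S, 15.6% to 16.2% in the controls) overlapped.

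**Figure D3:**
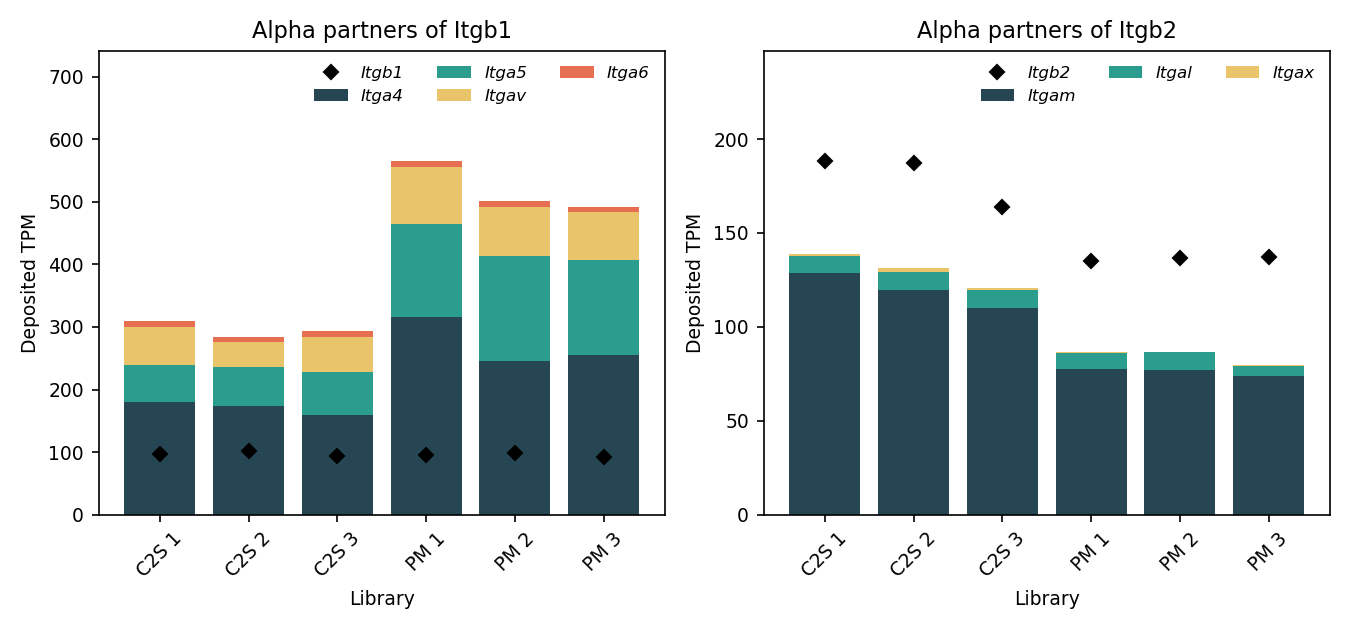
Deposited TPM of alpha subunits stacked by library, with the TPM of their common beta subunit as a diamond, for Itgb1 (left panel) and Itgb2 (right panel), C2S libraries left of PM_control libraries (PM). Itgad, at 0 in every library, is not drawn. The stack over Itgb1 is 284 to 309 TPM with C2S and 491 to 565 TPM in the controls, and its diamonds stay between 92.6 and 101 TPM.

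Of the remaining beta chains Itgb7 rose and Itgb5 was not called. Itgb7 (ENSMUSG00000001281, chromosome 15, 102215995 to 102231944) encodes beta7, found on leukocytes and paired with alpha4 or alphaE. C2S libraries held 47.2, 45.3 and 43.6 CPM of it, against 29.8, 34.5 and 28.8 CPM for the controls. Its groups lay apart, and the log2 difference was 0.55 ± 0.09 (edgeR, adjusted p = 9.26e-05) and 0.36 with the GC trend removed (adjusted p = 0.00342). The gene of its other partner, Itgae, gave 7 reads over all C2S libraries and 6 over all controls.

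Itgb5, which encodes the vitronectin receptor chain beta5, stood at 24.5, 26.6 and 32.95 CPM with C2S and 29.6, 32.3 and 26.9 CPM in the controls. The groups overlapped, and the log2 fold change was -0.08 (95% interval -0.33 to 0.17; edgeR, adjusted p = 0.572). Its sign turned without C2S replicate 1, at 0.02, and it was -0.27 with the GC trend removed (edgeR, adjusted p = 0.0628). Of the other partners of alphaV, Itgb3 gave 7 reads over all C2S libraries and 5 over all controls, and Itgb6 and Itgb8 gave 0.

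Transcript ratios of alpha over beta were compared in 8 textbook pairs by an exact two-sided permutation test over the 6 libraries, whose smallest possible p is 0.1, or 0.133 after Benjamini-Hochberg adjustment over the 8 pairs here. No pair can therefore pass the threshold, and 6 of the 8 were at that smallest p, which here means only that the groups did not overlap. Groups of single genes did not overlap for 61.1% of all genes tested, and no such share was computed for ratios of other genes. The ratios come from the same reads as the gene changes above and are not separate support for them. Itga5 over Itgb1 was 0.615, 0.612 and 0.737 with C2S, against 1.55, 1.70 and 1.63 for the controls, so Itga5 was below Itgb1 in every C2S library and above it in every control. The mean log2 ratio differed by -1.32. Itga4 over Itgb7 was 6.55, 6.45 and 6.30 with C2S, against 16.5, 11.4 and 13.5 for the controls, a difference of -1.09 in log2 ratio. Itga4 was thus above Itgb7 in every library, by a smaller margin with C2S.

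Itga4 over Itgb1 was 1.77 ± 0.0936 with C2S and 2.86 ± 0.411 in the controls (SD, n = 3 each), a difference of -0.68 in log2 ratio. For Itgav the differences were -0.70 over Itgb1 and -0.51 over Itgb5 on TPM. They were -1.09 and -0.88 on scaled counts per mean effective length, where the assigned length of Itgav does not vary between libraries. Among the 6 pairs only Itgam over Itgb2 was higher with C2S, at 0.685, 0.640 and 0.671, against 0.574, 0.562 and 0.538 for the controls. The difference was 0.25 in log2 ratio, and it rests on the TPM of Itgam, which is uncertain because of Gm49368. The ratios of Itga6 over Itgb1 (exact permutation p = 0.4, adjusted 0.457) and Itgal over Itgb2 (exact permutation p = 0.7, adjusted 0.7) overlapped between the groups.

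**Figure D4:**
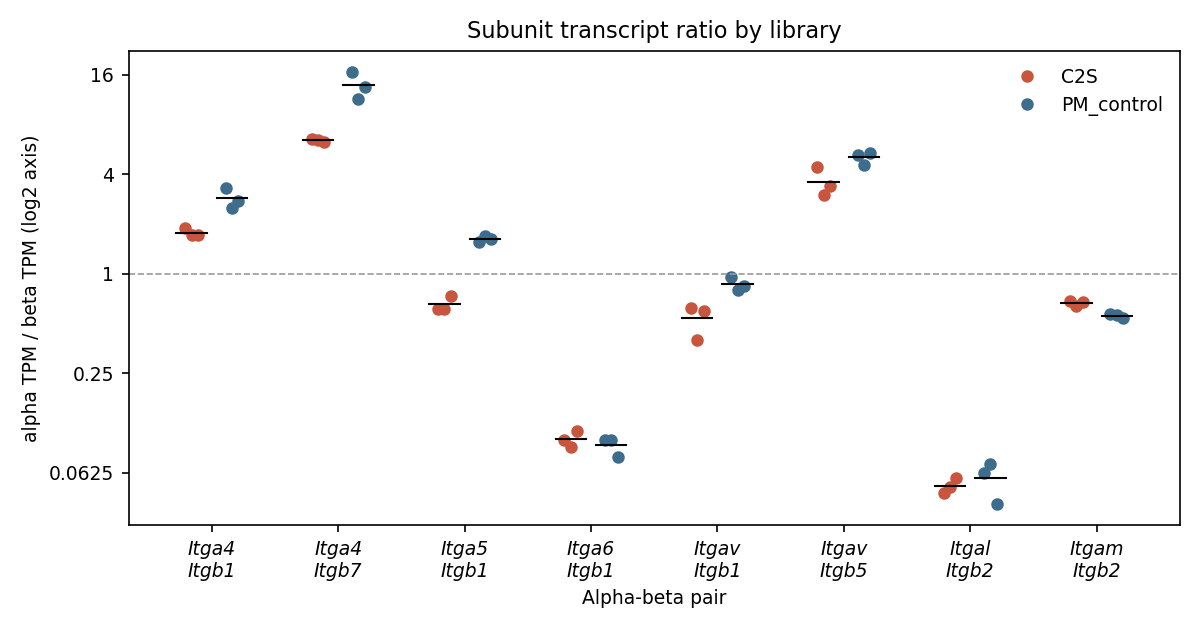
Ratio of alpha to beta TPM for 8 pairs (log2 axis), 1 point per library, C2S left of PM_control, with group means as black bars and equal TPM as a dashed line. Itga5 over Itgb1 lies below the line with C2S (0.612 to 0.737) and above it in the controls (1.55 to 1.70).

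Itgam and Itga5, the genes with the largest fitted rise and fall of the 10, were compared with 9120 other genes by the Euclidean distance between their log2(CPM + 1) profiles over the 6 libraries, each less its own mean. The nearest to Itgam were Paip2b (distance 0.0916), Esyt1 (0.1001) and Sde2 (0.101), with log2 fold changes of 0.84, 0.83 and 0.84. The nearest to Itga5 were Pdgfb (0.150), Nrde2 (0.157) and Rnf26 (0.158), with log2 fold changes of -1.20, -1.34 and -1.18. With 6 libraries in 2 groups, the distance depends mostly on the size of the group difference, and both sets of neighbours have fold changes close to those of their integrin gene.

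Of the 16 other integrin subunit genes, 5 passed the count filter, and of these 4 were called higher and 0 lower. Over all genes tested, 27.0% were called higher and 28.4% lower. All 5 were low, with at most 8.95 CPM in any library. Itga2b, Itgax and Itga10 reached the minimum of the filter in all libraries of the C2S group only, so the direction of the tally is in part set by the filter. Genes with any count numbered 15852 to 16648 in the C2S libraries and 14638 to 15051 in the controls, without overlap, and the median log2 fold change of all genes was 0.10 without the filter. The part of this difference in the calls of low genes was not tested. Itgax rose to 3.06 ± 0.308 CPM with C2S, against 0.717 ± 0.197 CPM in the controls (SD, n = 3 each; edgeR, adjusted p = 0.000211). Itga2b, which encodes the platelet chain alphaIIb, gave 66 reads over the C2S libraries and 3 over the controls, a CPM ratio of 24.4 (95% counting interval 7.99 to 121; edgeR, adjusted p = 2.65e-05). Itga7, a laminin receptor chain, was called at 0.62 ± 0.25 (edgeR, adjusted p = 0.0423) and Itga10, a collagen receptor chain, at 1.12 ± 0.45 (adjusted p = 0.0456), each with overlapping groups, and exons of Gm42957 cover 33.5% of Itga10. Itgb4, whose product pairs with alpha6, was not called (0.47 ± 0.25; edgeR, adjusted p = 0.115). Only 2 of the 5 were called higher without C2S replicate 1, without PM_control replicate 2, by DESeq2, with library sizes alone or with the GC trend removed. Limma on TPM also called 2 higher, but it left Itgax and Itga10 untested, as their mean TPM was below its minimum of 1. Of the 11 genes below the filter, 5 gave 0 reads in all 6 libraries and the other 6 at most 7 per group.

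Of 33 ligand genes, 13 were tested, 7 called higher and 1 lower, with a median log2 fold change of 0.29. Beside this stand 27.0% called higher and 28.4% lower over all genes tested. Jam3, among the ligand genes called higher, passed the count filter through the C2S libraries only. Icam1, the ligand of LFA-1 and Mac-1, rose to 378 ± 16.6 CPM with C2S, against 160 ± 7.80 CPM in the controls (SD, n = 3 each; edgeR, adjusted p = 3.93e-11), and its exons overlap Gm47079 over 11.7% of their length. Mfge8, which bridges apoptotic cells to alphaV integrins, rose by 0.66 ± 0.06 on the log2 scale, and Jam2, a junction protein that binds alpha4beta1, fell by 0.89 ± 0.26. Limma on log2(TPM + 1) called 4 ligand genes higher and 2 lower, and 2 were also called lower without C2S replicate 2, with library sizes alone and without the low-count filter. Fn1, Vcam1 and Madcam1, which encode ligands of alpha4 and alpha5 integrins, were at 0 in all 6 libraries. By contrast, the osteopontin gene Spp1 averaged 1118 CPM with C2S and 1240 CPM in the controls. Its groups lay apart but it was not called (edgeR, adjusted p = 0.0555), and exons of Gm42793 cover 18.75% of it.

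Of 15 genes of inside-out activation, 12 were tested, with 4 called higher and 2 lower (median 0.07). For this list and the next, the shares over all genes tested were 27.0% higher and 28.4% lower. The talin gene Tln2 rose by 1.14 ± 0.09 on the log2 scale, and Cyth1, which encodes cytohesin-1, a regulator that binds the beta2 tail, by 1.10 ± 0.14. Tln2 was the minor talin gene, at 74.7 CPM with C2S and 33.7 CPM in the controls. The other, Tln1, averaged 2219 CPM with C2S and 1568 CPM in the controls and rose by 0.50 ± 0.07. The Rap1 gene Rap1a (-0.30 ± 0.08) and Apbb1ip, which encodes RIAM, a Rap1 effector that recruits talin (-0.59 ± 0.07), fell. Of 9 genes that restrain integrins, 7 were tested, with 2 called higher and 2 lower (median 0.18). Rasa3, a GTPase activator of Rap1, rose by 0.65 ± 0.07 and Flna, which encodes filamin A, a competitor of talin, by 0.47 ± 0.06. Sipa1, another Rap1 GTPase activator (-0.74 ± 0.07), and the adaptor gene Dok1 (-0.72 ± 0.11) fell. Limma on log2(TPM + 1) called 1 gene of inside-out activation lower.

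Of 32 genes of adhesion complexes and their signalling, 29 were tested, with 14 called higher and 7 lower (median 0.18). Beside this stand 27.0% called higher and 28.4% lower over all genes tested. Src, among the genes of this list called higher, passed the count filter through the C2S libraries only. The count called higher was 9 without PM_control replicate 2, 8 with library sizes alone and 6 with limma on log2(TPM + 1). That limma fit left Src untested for its low TPM. Zyx, which encodes the focal adhesion protein zyxin, rose to 97.0 ± 8.84 CPM with C2S, against 31.6 ± 5.49 CPM in the controls (SD, n = 3 each; edgeR, adjusted p = 2.14e-09). Vav3, an exchange factor of the Vav family, rose by 1.37 ± 0.09 on the log2 scale. Tns3, which encodes tensin 3, an adaptor that binds beta tails, fell to 303 ± 15.7 CPM with C2S, against 525 ± 12.2 CPM in the controls (edgeR, adjusted p = 7.18e-09), and the adaptor gene Crk had a log2 fold change of -0.71 ± 0.09.

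Of 18 membrane partners and traffic genes, 17 were tested, with 5 called higher and 7 lower (median -0.09). Beside this stand 27.0% called higher and 28.4% lower over all genes tested. Slc3a2, the CD98 heavy chain that binds beta1 tails and also carries amino acid transporters, rose to 1051 ± 23.3 CPM with C2S, against 224 ± 17.9 CPM in the controls (SD, n = 3 each; edgeR, adjusted p = 7.32e-14). Plaur, the urokinase receptor and a partner of Mac-1, rose by 1.06 ± 0.09 on the log2 scale. Numb, an endocytic adaptor of integrins, had a log2 fold change of -0.80 ± 0.08 and the tetraspanin gene Cd9 one of -0.53 ± 0.07, although exons of Gm26728 cover 10.67% of Cd9. Over the 5 lists of genes that are not subunits the medians ran from -0.09 to 0.29, beside -0.0021 over all genes tested, and no list was tested as a set. A few of their low genes, such as Jam3 and Src, also passed the filter through a single group.

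**Figure D5:**
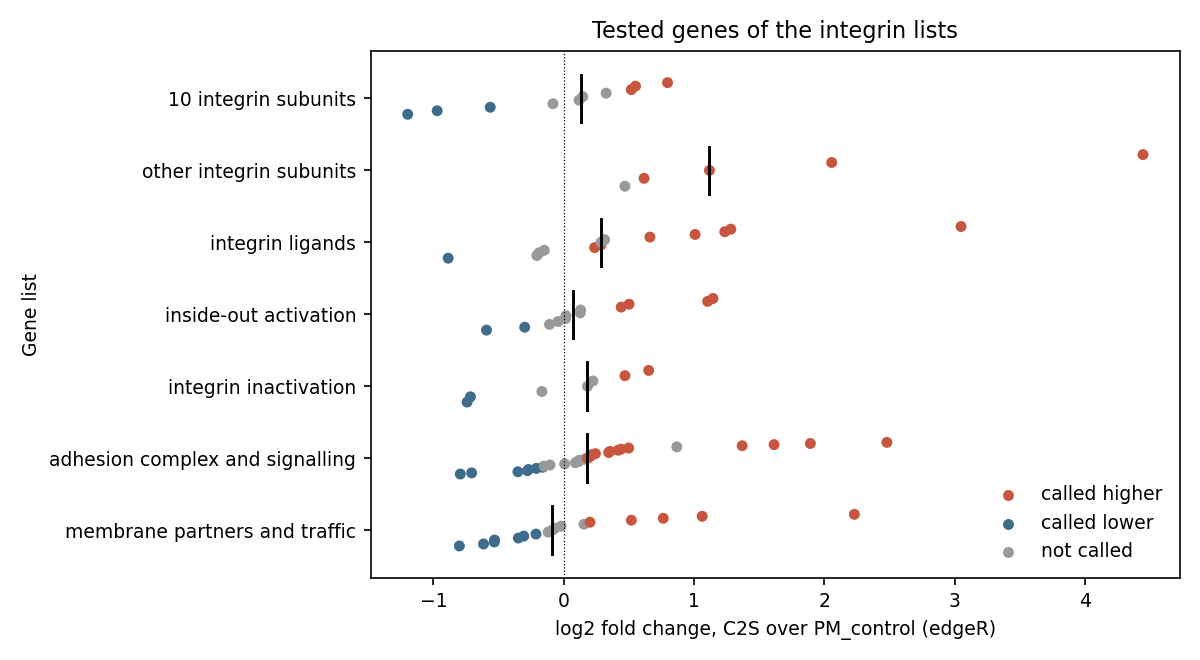
Log2 fold change (edgeR, C2S over PM_control) of each tested gene in the integrin lists, 1 point per gene, coloured by call, with the list median as a black bar. The 10 integrin subunits lie from -1.20 to 0.80, and the other integrin subunits, all low in counts and in part kept by the filter for being high with C2S, from 0.47 to 4.44.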

How the data were processed

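RNA of 3 C2S and 3 PM_control libraries was grouped and numbered by the sample titles. Per the labels' design text, the authors trimmed reads with fastp, aligned them to mm10 with STAR and counted genes with RSEM. Tool versions, gene models and the strand setting were not given in the sources used here. The authors deposited expected counts, RSEM's estimated reads per gene with shared reads split by its model. The deposited TPM values were used for levels between genes and for subunit ratios, and the deposited FPKM values were not used. Symbols were found for 52403 of 52636 genes in GENCODE M21 (GRCm38), from which gene positions, exons and GC content were read. Exon overlap was counted on either strand.

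Expected counts were rounded, filtered with filterByExpr (minimum count 10, minimum total 15) and tested with edgeR 4.0.16 (R 4.3.3; quasi-likelihood F test, TMM, group as the only term, Benjamini-Hochberg over all 11561 genes tested, threshold 0.05). CPM values are TMM-scaled. SEs of log2 fold changes were approximated as the absolute value over the square root of F, and intervals use the fit's degrees of freedom. Totals ranged from 8594485 to 10665869 counts, and the common biological coefficient of variation was 7.52%. Replicate libraries differed beyond sampling noise (chi-square over degrees of freedom 4.30 to 6.46), so each counted once. On simulated data for this comparison (10655 genes tested), edgeR recovered 98% of genes changed 1.5-fold and 100% of those changed 2-fold. Of its 211 calls there, 12 were false. The simulation changed 50 genes per fold, all well counted, and gave every gene the same dispersion. In the data 55.4% of genes were called, so these rates are not the power for these data, least of all for low genes.

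The integrin genes, pairs, lists and motifs were chosen with earlier results of these data known. Named genes were the 10 integrins, each other integrin subunit past the filter, up to 2 genes per list and direction by adjusted p whose groups did not overlap, and the 3 nearest profiles of the largest riser and faller (mean of 5 CPM or more, predicted genes left out). Spp1 and Tln1 were named outside this rule for their high level. Lists are described by counts and medians. Alternatives were RLE, upper quartile and library-size scaling, DESeq2 1.42.0, limma 3.58.1 on log2(TPM + 1) and log2(TPM + 0.1) (mean TPM 1 or more), a filter of 1 CPM in 3 libraries or none, counts left unrounded, a replicate block, removal of each library's GC trend, and leaving out each library. Python 3.11.15 was used for the permutation tests.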

Additional observations from a re-analysis of the deposited data

How the results depend on the processing

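The 6 integrin genes called kept their direction and their call in all 108 values computed for them, from 12 other settings and 6 fits that each left out a library. Of the genes not called, Itgal passed without the low-count filter (log2 fold change 0.30), and leaving out a library put it between 0.16 and 0.45. Itgb1 passed with the GC trend removed (0.21). Itgb5, which was at -0.08, ranged from -0.214 to 0.0157 when a library was left out (0.0157 without C2S replicate 1). With the GC trend removed Itgb5 was at -0.27, still not called. The number of integrin genes called higher was 3 or 4 and the number called lower was 3 in every setting. Over all genes tested, 1717 were called higher with limma on log2(TPM + 1) and 1705 with log2(TPM + 0.1). The log2(TPM + 1) fit moved the genes by a median of -0.10. Itgb1 stood at 0.02 there (limma, adjusted p = 0.851), beside 0.12 in the edgeR fit. The log2 ratio differences of Itgav over Itgb1 and over Itgb5 were -1.09 and -0.88 on scaled counts per mean effective length, by construction without the changes in assigned length. Leaving out a library kept the sign of 7 of the 8 ratio differences, and that of Itgal over Itgb2 ran from -0.35 to 0.05. Deviations of same-numbered libraries correlated at -0.01, 0.07 and 0.04 across genes, and those of other C2S and control pairs at -0.12 to 0.08. With 3 libraries per group these deviations cancel within each group, so the check cannot tell whether replicate numbers pair the samples. With the number as a replicate block, 3192 genes were called higher and 3297 lower, 2 ligand genes were called lower in place of 1, the calls of the 10 integrin genes were the same, and not every library correlated best with its own number. Depth limits Itga2b, Itgax, Itga10 and the subunits below the filter, which rest on few counts.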
